A study of Homo sapiens with 18 samples.

Results

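The 9 genes described here carry out cystine import and the synthesis, recycling, use and breakdown of glutathione: SLC7A11, SLC3A2, GCLC, GCLM, GSS, GSR, GPX1, GPX4 and GGT1. They were picked by gene symbol from a matrix of 62754 genes, a rule that uses no measured value. The set itself was chosen with earlier results of these data known. All 9 were among the 15167 genes that passed the filter on low counts. The cells were EA.hy926, a human endothelial line made by fusing umbilical vein endothelial cells with A549 lung carcinoma cells. They received transfection reagent alone (Mock), 10 nM non-targeting siRNA (siNT) or 10 nM of a pool of siRNAs against ELMO1 (siELMO1), an adaptor of RAC1 activation. They were kept overnight in low serum. At 48 h after transfection they were lysed (0 h) or given 1 μg/ml poly(I:C), a double-stranded RNA that stimulates TLR3, for 24 h (24 h). Each of the 6 groups had 3 libraries of polyadenylated RNA. The study had no culture left 24 h without poly(I:C), so a change from 0 h to 24 h covers the agent and the passage of time, which cannot be told apart.

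Cells take up cysteine mainly as its oxidised dimer cystine, through a carrier made of the transport chain SLC7A11 (xCT) and the heavy chain SLC3A2 (CD98hc), in exchange for glutamate. Glutamate-cysteine ligase, a catalytic chain (GCLC) with a modifier chain (GCLM), joins cysteine to glutamate in the limiting step, and glutathione synthetase (GSS) adds glycine. Glutathione reductase (GSR) returns the oxidised form with NADPH, GPX1 and GPX4 use glutathione to reduce peroxides, and the surface enzyme GGT1 opens its breakdown outside the cell. In endothelium this system buffers oxidants, and loss of its import or of GPX4 is known to sensitise many cells to ferroptosis, a death by lipid peroxidation.

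Library totals ran from 40374756 to 73850946 estimated counts, and the biological coefficient of variation was 12.2%. Groups were compared by edgeR's quasi-likelihood test over all genes, and a gene was called at an adjusted p under 0.05. ELMO1 itself was low, at 2.66 to 3.32 CPM (counts scaled to a common library total with TMM factors) in siNT and 0.299 to 0.419 CPM in siELMO1 at 0 h, with a log2 fold change of -3.11 (edgeR adjusted p = 2.74e-08). Of 12 endothelial markers 11 were detected and CLDN5 was under 1 CPM, and of 9 lung epithelial markers KRT7, KRT8 and KRT18 were present while EPCAM, CDH1, KRT19, NKX2-1, SFTPB and SFTPC were under 1 CPM. The endothelial markers summed to 2242 to 2347 CPM in siELMO1, against 1785 to 1856 CPM in siNT and 1648 to 1751 CPM in Mock at 0 h. Of the 11 tested, 8 were higher and 2 lower against siNT, beside 31.3% of all genes in each direction. The lung epithelial markers summed to 2103 to 2227 CPM in siELMO1, 1882 to 1914 CPM in siNT and 1519 to 1541 CPM in Mock at 0 h. Of 5 leukocyte markers PTPRC, CD14 and CD3E were under 1 CPM. The 5 summed to 67.2 to 100 CPM in siELMO1, 35.7 to 40.0 CPM in siNT and 54.1 to 77.4 CPM in Mock at 0 h. At 24 h their sum reached 285 CPM in Mock. The 6 fibroblast and smooth muscle markers summed to 5.10 to 31.0 CPM over all libraries. The part of these cell type markers in the results was not tested. Libraries 2 and 3 of siELMO1 at 0 h stood apart, with 4.02% and 3.95% of counts from mitochondrially encoded genes against 1.86% in library 1 and 1.31% to 2.42% in the other 15. They also had the lowest totals, 40374756 and 50984532 estimated counts. Library 1 differed more from them (chi-square per gene of 60.4 and 67.1) than they did from each other (9.44). Calls that changed when libraries 2 and 3 were both left out are given with and without them. In RNA from a whole culture, fewer cells that express a gene and less RNA per cell cannot be told apart. The paper reports massive cell death in siNT cultures after poly(I:C), much less of it in Mock, and its inhibition by the knockdown. The authors consider this death the likely reason for lower inflammatory transcripts in siNT. The part of cell death in the comparisons and interactions that use siNT at 24 h was not tested.

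SLC7A11, the cystine-transporting chain, changed most of the 9. Mock libraries at 0 h held 453, 482 and 439 CPM, siNT libraries 508, 464 and 478 CPM, and siELMO1 libraries 61.9, 57.2 and 61.2 CPM. The siELMO1 libraries lay far below all 6 controls, and siNT and Mock overlapped. The level was 8.04-fold lower than in siNT (log2 fold change -3.01, SE 0.11) and 7.61-fold lower than in Mock, with edgeR adjusted p of 2.33e-13 and 4.09e-13. Among all genes tested, 0.330% had a lower log2 fold change against siNT. At 24 h Mock held 171, 199 and 163 CPM, siNT 305, 300.5 and 226 CPM, and siELMO1 51.8, 47.5 and 41.6 CPM. The gene thus fell after poly(I:C) in each transfection, and the 3 groups at 24 h did not overlap, with siNT above Mock and Mock above siELMO1. It was 5.89-fold lower in siELMO1 than in siNT (log2 fold change -2.56, SE 0.11, edgeR adjusted p = 1.12e-11). The gene lies at chr4:138164097-138242349 on the minus strand (GRCh38), and its 12-exon transcript SLC7A11-201 held nearly all of its transcript counts, at least 99.95% in each library. SLC7A11-AS1 on the opposite strand held 0.120 to 2.19 CPM. It was lower in siELMO1 against siNT (-1.24) and Mock (-1.39) at 0 h and at 24 h (-1.06 and -1.68; adjusted p from 0.00181 to 0.0281 over the 4), and its mean in Mock was 0.667 CPM at 0 h and 2.03 CPM at 24 h. Whether the counting used strand is not stated, but its highest level is far below the lowest of SLC7A11.

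SLC3A2, the heavy chain that carries SLC7A11 and other light chains to the surface, followed another course. At 0 h the Mock libraries stood at 204, 201 and 195 CPM, and those of siNT at 197, 204 and 196 CPM. The siELMO1 libraries held 174, 135 and 123 CPM, all below the controls but spread widely. The log2 fold change was -0.46 against siNT (SE 0.10, edgeR adjusted p = 0.000474) and -0.47 against Mock (adjusted p = 0.000602). This call rested on the libraries with the higher mitochondrial share: with library 1 alone the log2 fold change was -0.18 against siNT (adjusted p = 0.115) and -0.23 against Mock (adjusted p = 0.0594), and without library 1 it was -0.63 in both. At 24 h Mock reached 497, 536 and 426 CPM, while siNT held 234, 239 and 227 CPM and siELMO1 262, 239 and 232 CPM. Mock therefore stood apart from both siRNA groups, which overlapped. SLC3A2 was 1.99-fold lower in siELMO1 than in Mock at 24 h (adjusted p = 2.90e-07), and the difference from siNT was 0.07 (95% interval -0.14 to 0.27, adjusted p = 0.596). The gene lies at chr11:62856004-62888880, plus strand, and its counts were spread over many of 41 annotated transcripts, with 24.5% to 32.2% on SLC3A2-201 as group means and 1.04% to 41.9% among libraries, so shares of its transcripts were not compared between groups.

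**Figure D1:**
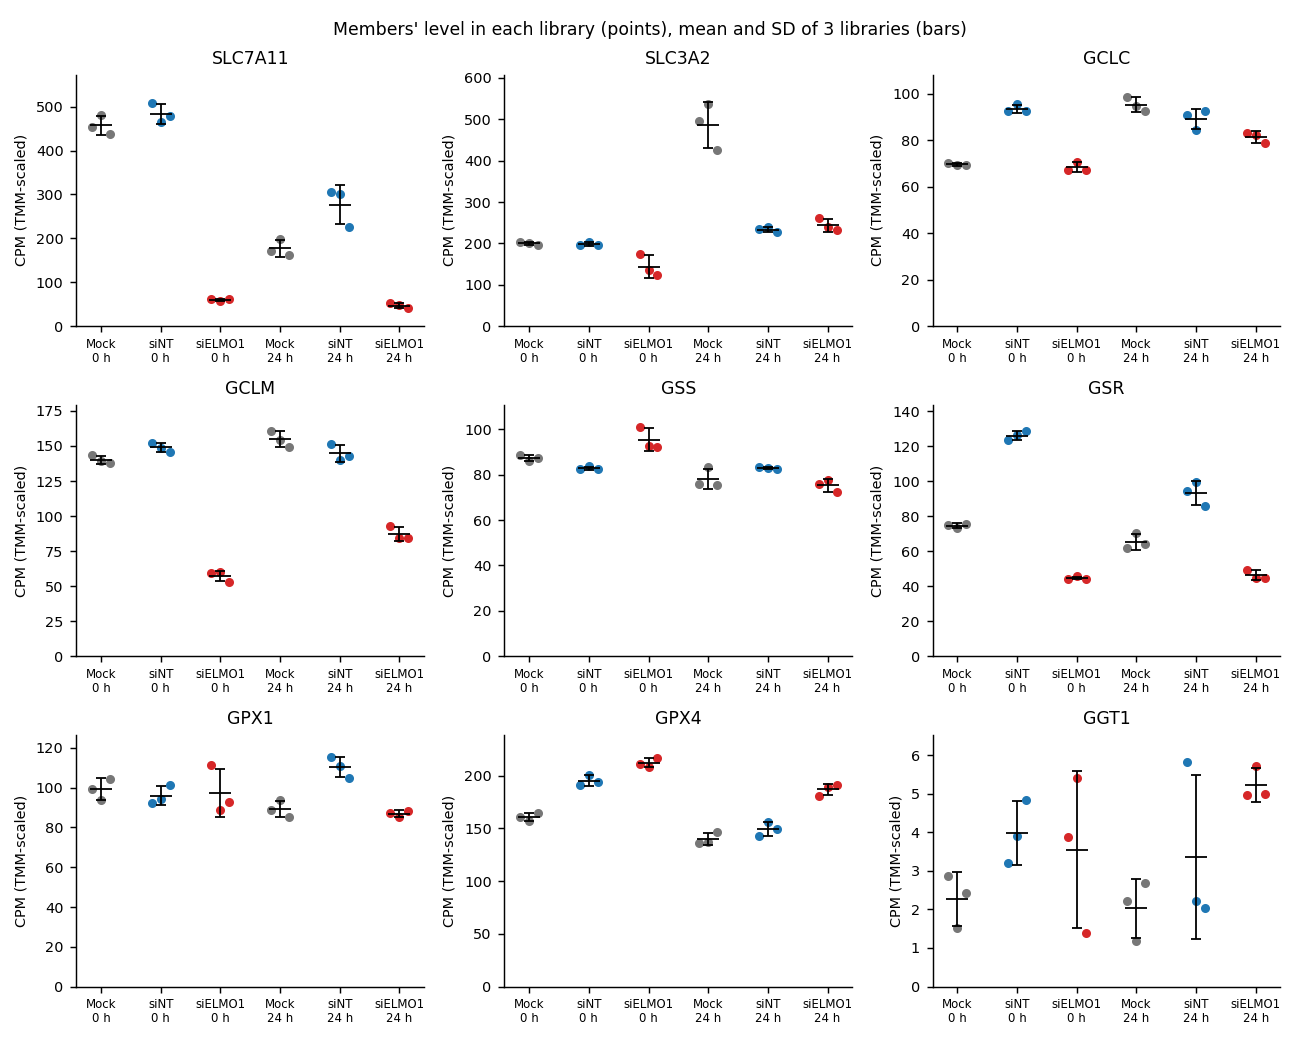
CPM of each member, scaled by TMM factors (vertical axes start at 0), for Mock, siNT and siELMO1 at 0 h and 24 h. Points are the 3 libraries and bars the mean and SD. SLC7A11, GCLM and GSR are lowest in siELMO1 at both times, and SLC3A2 is highest in Mock at 24 h.

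Because the carrier needs both chains, their mRNA ratio was computed per library from CPM per kilobase of transcript. SLC7A11 over SLC3A2 was 0.477 ± 0.0314 in Mock and 0.499 ± 0.0321 in siNT at 0 h (SD, n = 3), against 0.0876 ± 0.0146 in siELMO1. At 24 h it was 0.0782 ± 0.00657 in Mock, 0.250 ± 0.0378 in siNT and 0.0409 ± 0.00423 in siELMO1. Mock after poly(I:C) and siELMO1 before it thus had ratios that overlapped (0.0707 to 0.0823 and 0.0734 to 0.103), though Mock came there with less SLC7A11 and more SLC3A2 and siELMO1 mainly with less SLC7A11. For the chains of glutamate-cysteine ligase, GCLM over GCLC was 1.41 ± 0.0958 in Mock, 1.12 ± 0.0712 in siNT and 0.605 ± 0.0398 in siELMO1 at 0 h. At 24 h it was 1.05 ± 0.154, 1.13 ± 0.0471 and 0.758 ± 0.0168, with the siELMO1 libraries below the others at both times. These are ratios of mRNA levels and depend on the transcript lengths assigned.

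**Figure D2:**
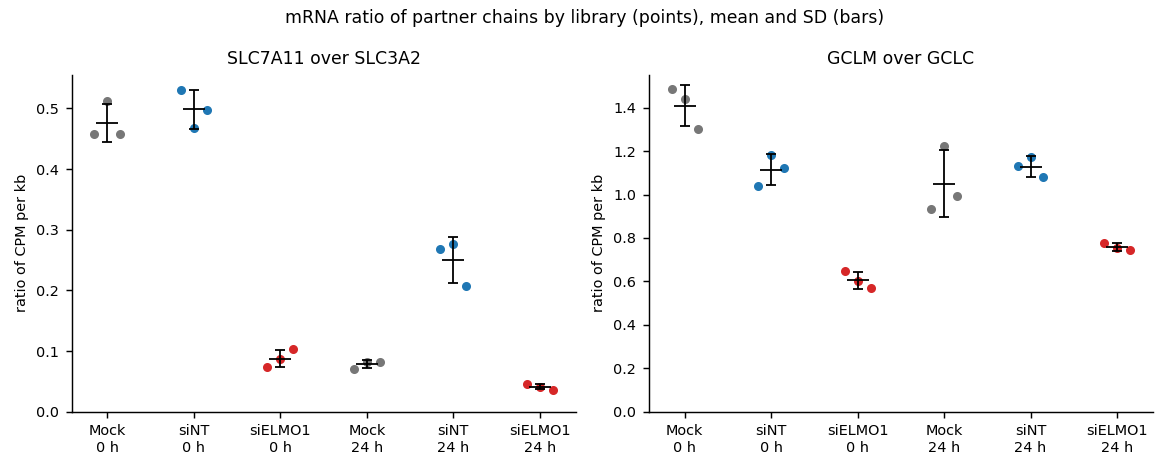
Ratio of CPM per kilobase of SLC7A11 over SLC3A2 (left) and of GCLM over GCLC (right) in the 6 groups. Points are libraries, bars the mean and SD of 3. Both ratios are lower in siELMO1 than in siNT and Mock at 0 h, and the carrier ratio of Mock falls from 0.477 to 0.0782 by 24 h.

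GCLM, the modifier chain that raises the affinity of the ligase for glutamate, was the other gene of the supply steps with a large change. At 0 h Mock held 143, 139 and 138 CPM, siNT 152, 149 and 146 CPM, and siELMO1 59.2, 60.0 and 53.1 CPM. The siELMO1 group was well below both controls. The fold was 2.59 lower than in siNT (log2 fold change -1.38, SE 0.05, edgeR adjusted p = 6.07e-13) and 2.44 lower than in Mock (adjusted p = 1.91e-12). At 24 h siELMO1 held 93.3, 84.4 and 84.5 CPM against 152, 139.8 and 143 CPM in siNT and 161, 154 and 149 CPM in Mock. It was still 1.66-fold lower than in siNT (adjusted p = 6.15e-09), and had risen by 0.61 on the log2 scale from 0 h (adjusted p = 3.64e-08). The gene is at chr1:93885199-93909456, minus strand, and the 7-exon transcript GCLM-201 held 97.8% to 98.6% of its counts on average in each group.

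GCLM is a textbook target of NRF2, which binds the antioxidant response element, so the 250 bases before each RefSeq start of the members were searched for its core TGACNNNGC on both strands. RefSeq windows (GRCh38.p14) matched 6 members with 11 starts: SLC3A2, GCLC, GCLM, GPX1, GPX4 and GGT1. SLC7A11, GSS and GSR had no window and were not searched for any of the motifs. The core was present in 3 of the 11 windows and in 10.9% of 35116 windows of all genes; the 3 belong to GCLM, SLC3A2 and GGT1. It is shown for GCLM and SLC3A2, which differed in their response to siELMO1 and to poly(I:C), with the match in capitals. The GCLM match begins 34 bases before the start and reads the core on the opposite strand (chr1:93909446-93909474, minus strand), and the SLC3A2 match begins 37 bases before 1 of its starts (chr11:62881652-62881680, plus strand).
GCLM: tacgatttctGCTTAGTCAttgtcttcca
SLC3A2: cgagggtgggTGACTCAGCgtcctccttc
The SLC3A2 match also holds an AP-1 site, TGANTCA, found in 1 of the 11 windows and in 6.57% of all. The core of the ATF4 composite element, TGATGNAA, was in 0 of the 11 windows and in 3.14% of all. With so few windows and so low a share, this count is no result about the members. A match of letters does not show binding.

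GCLC, the catalytic chain, differed between the controls. Mock libraries at 0 h held 70.3, 69.1 and 69.2 CPM, siNT 92.4, 95.4 and 92.6 CPM, and siELMO1 67.0, 70.8 and 67.2 CPM. The siELMO1 libraries thus lay below siNT, and their range overlapped that of Mock. The log2 fold change was -0.45 against siNT (SE 0.04, edgeR adjusted p = 8.09e-08) and -0.03 against Mock (95% interval -0.12 to 0.07, adjusted p = 0.664), while siNT was 0.43 above Mock (adjusted p = 3.30e-07). At 24 h Mock had a mean of 95.3 ± 3.03 CPM, siNT of 89.3 ± 4.26 CPM and siELMO1 of 81.4 ± 2.47 CPM (SD, n = 3). The siELMO1 libraries were below both other groups, by 0.13 on the log2 scale against siNT (adjusted p = 0.0175) and 0.23 against Mock (adjusted p = 0.000416). The smaller call was lost without siELMO1 library 3, siNT library 1 or siNT library 3 (adjusted p from 0.0568 to 0.0766). It was also lost with only the groups compared (0.0736) and with no filter on low counts (0.0924). GCLC lies at chr6:53497341-53616970, minus strand, and on the opposite strand GCLC-AS1 held 0 to 0.268 CPM and LINC01564 had 0 counts.

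GSS, which completes the tripeptide, moved little. Its group means ran from 75.2 ± 2.76 CPM in siELMO1 at 24 h to 95.3 ± 5.01 CPM in siELMO1 at 0 h. In siELMO1 at 0 h the libraries held 101, 92.5 and 92.3 CPM, above 82.4, 83.6 and 82.6 CPM in siNT and 88.4, 86.1 and 87.2 CPM in Mock. The log2 fold change was 0.20 against siNT (edgeR adjusted p = 0.00122) and 0.13 against Mock (adjusted p = 0.0324), and the latter call was lost without any 1 of the Mock libraries or siELMO1 library 1 (adjusted p from 0.137 to 0.240). It was also lost with other scalings, with other filters, without mitochondrially encoded genes and with only the groups compared (0.0597 to 0.475). At 24 h the order against siNT was turned: siELMO1 was 0.14 below siNT on the log2 scale (adjusted p = 0.0192). This call was lost without siELMO1 library 3 (0.0864) and with no filter on low counts (0.143). Against Mock at 24 h the log2 fold change was -0.05 (adjusted p = 0.378), and the libraries overlapped. GSS lies at chr20:34928432-34956027, minus strand. MYH7B on the opposite strand held 0.229 to 1.17 CPM, and was higher in siELMO1 than in siNT at 0 h (1.41, adjusted p = 0.0135), with means of 0.767 and 0.292 CPM.

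GSR, which regenerates reduced glutathione, differed between all 3 transfections at 0 h. Mock held 75.1, 73.2 and 75.8 CPM, siNT 123, 126 and 129 CPM, and siELMO1 44.4, 45.6 and 44.1 CPM. No library of 1 group overlapped another group. GSR was 2.82-fold lower in siELMO1 than in siNT (log2 fold change -1.50, SE 0.06, edgeR adjusted p = 6.81e-13) and 1.67-fold lower than in Mock (adjusted p = 1.21e-08), and 1.69-fold higher in siNT than in Mock (adjusted p = 9.36e-09). At 24 h Mock held 61.6, 70.3 and 64.2 CPM, siNT 94.3, 99.5 and 85.6 CPM, and siELMO1 49.5, 45.0 and 44.5 CPM. The order of the groups was as before, with a 2.01-fold lower level in siELMO1 than in siNT (adjusted p = 4.53e-10) and a 1.41-fold lower level than in Mock (adjusted p = 2.78e-06). The gene lies at chr8:30678066-30727846, minus strand, and GSR-201 with 13 exons held 85.0% to 99.96% of its counts on average in each group.

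GPX4, the selenoenzyme that reduces peroxidised membrane lipids, was higher in siELMO1 than in both controls at both times. At 0 h Mock held 161, 157 and 164 CPM, siNT 191, 201 and 194 CPM, and siELMO1 211, 208 and 217 CPM. The 3 groups did not overlap. Against Mock the log2 fold change was 0.40 (SE 0.04, edgeR adjusted p = 6.36e-07), and against siNT it was 0.12 (adjusted p = 0.0264), a call lost without siELMO1 library 3, siNT library 1 or siNT library 3 (adjusted p from 0.0694 to 0.0927), without siELMO1 libraries 2 and 3 together (0.106), with library totals (0.0698) and with no filter on low counts (0.209). At 24 h Mock held 136, 137 and 146 CPM, siNT 143, 156 and 149 CPM, and siELMO1 181, 189 and 191 CPM. Now siELMO1 stood above both, by 0.42 against Mock (adjusted p = 6.23e-07) and 0.32 against siNT (adjusted p = 1.03e-05). GPX4 lies at chr19:1103982-1106791, plus strand, and GPX4-201, GPX4-209, GPX4-210 and GPX4-213 each took 10.3% to 37.0% of its counts as group means.

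GPX1, the cytosolic peroxidase for hydrogen peroxide, was not called between transfections at 0 h. Mock held 99.6, 93.7 and 105 CPM, siNT 92.2, 94.6 and 101 CPM, and siELMO1 111, 88.6 and 92.9 CPM, and the 3 groups overlapped. The log2 fold change of siELMO1 against siNT was 0.02 (95% interval -0.12 to 0.17, edgeR adjusted p = 0.785), and 0.22 (adjusted p = 0.0184) without siELMO1 libraries 2 and 3. At 24 h siNT held 115, 111 and 105 CPM, above 89.0, 93.6 and 85.4 CPM in Mock and 87.2, 85.3 and 88.5 CPM in siELMO1. The siELMO1 level was 0.34 below siNT on the log2 scale (adjusted p = 0.000558), and siNT was 0.31 above Mock (adjusted p = 0.00160). GPX1 lies at chr3:49357174-49358605, minus strand, where it overlaps the gene ENSG00000290318 on the same strand at 7.49 to 27.6 CPM, so reads could be split between them. That gene was lower in siELMO1 at 0 h, at 7.49 to 10.5 CPM against 17.2 to 27.6 CPM in siNT and 21.3 to 26.1 CPM in Mock, and its part in the GPX1 values was not tested.

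GGT1, which cleaves the gamma-glutamyl bond of glutathione at the cell surface, was the lowest of the 9, at 69 to 368 estimated counts per library. The levels ran from 1.19 to 5.81 CPM and the groups overlapped in most comparisons. At 24 h siELMO1 held 4.96, 5.72 and 5.00 CPM against 2.21, 1.19 and 2.67 CPM in Mock, a log2 fold change of 1.37 (SE 0.44, edgeR adjusted p = 0.0178). This call was lost without Mock library 2 (1.10, adjusted p = 0.0853). Without siNT library 1, at 5.81 CPM, siELMO1 was also higher than siNT at 24 h (1.29, adjusted p = 0.0219, against 0.64 and 0.226 with it), and without siELMO1 library 3 it was higher than Mock at 0 h (1.02, adjusted p = 0.0457). GGT1-212, annotated as a target of nonsense-mediated decay, held 74.4% of its counts on average in Mock at 24 h, 16.9% in siNT and 26.3% in siELMO1. The coding transcripts GGT1-201 and GGT1-202 had 0 counts in Mock at both times. Shares varied widely among libraries (3.06% to 62.5% for GGT1-212 in siELMO1 at 24 h) and were not tested. The gene lies at chr22:24594811-24629005, plus strand, among close copies. Of these GGT2P, GGTLC2 and GGTLC3 reached at most 0.322 CPM and GGT3P and GGTLC1 had 0 counts, but an overlapping gene on the same strand, ENSG00000286070, held 0 to 4.87 CPM. At 24 h that gene held 1.62 to 4.87 CPM in Mock, 0 to 3.09 CPM in siNT and 0 to 0.120 CPM in siELMO1, and it was called lower in siELMO1 against Mock (adjusted p = 0.0228) and siNT (0.0334), where GGT1 was higher against Mock. Reads could be split between the overlapping genes, and its part in the GGT1 difference was not tested.

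Levels of different genes were compared per kilobase of transcript. In Mock at 0 h GPX4 was highest (196 ± 4.44 CPM per kb), followed by GPX1 (101 ± 6.00) and SLC3A2 (99.6 ± 2.54), SLC7A11 (47.4 ± 2.29) and GSS (45.2 ± 1.09), GCLM (29.1 ± 0.690) and GSR (27.3 ± 2.52), GCLC (20.7 ± 1.06) and GGT1 (1.53 ± 0.295; SD, n = 3 each). The libraries overlapped within the pairs GPX1 and SLC3A2, SLC7A11 and GSS, and GCLM and GSR. In siELMO1 at 0 h SLC7A11 stood next to last, at 6.23 ± 0.244 CPM per kb, below GCLM (11.9 ± 0.836), GSR (15.0 ± 0.399) and GCLC (19.6 ± 0.836), and none of these 4 overlapped. In Mock at 24 h SLC3A2 (236 ± 26.7) stood above GPX4 (170.5 ± 6.46).

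The question of what siELMO1 did before stimulation was asked against both controls. Against siNT at 0 h, 5 members were lower (SLC7A11, GSR, GCLM, SLC3A2 and GCLC), where 31.3% of all genes tested were lower, and 2 were higher (GSS and GPX4), where 31.3% were higher. The median log2 fold change was -0.45 over the members and 0.00 over all genes. Against Mock, 4 were lower (SLC7A11, GCLM, GSR and SLC3A2; 22.4% of all genes) and 2 were higher (GPX4 and GSS; 27.9% of all genes), with medians of -0.03 and 0.04. SLC7A11, GCLM, GSR and SLC3A2 were thus lower against both, and GCLC only against siNT, in which it was raised over Mock. Both contrasts share the siELMO1 libraries. Without libraries 2 and 3 of siELMO1, 6 and 5 members were called in place of 7 and 6. SLC3A2 lost its call against both controls, and against siNT GPX4 lost its call and GPX1 gained one. Over all genes, 55.5% of the calls against Mock were higher, or 43.9% when libraries were scaled by their totals, a scaling under which GSS was not called (0.05, adjusted p = 0.475).

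**Figure D3:**
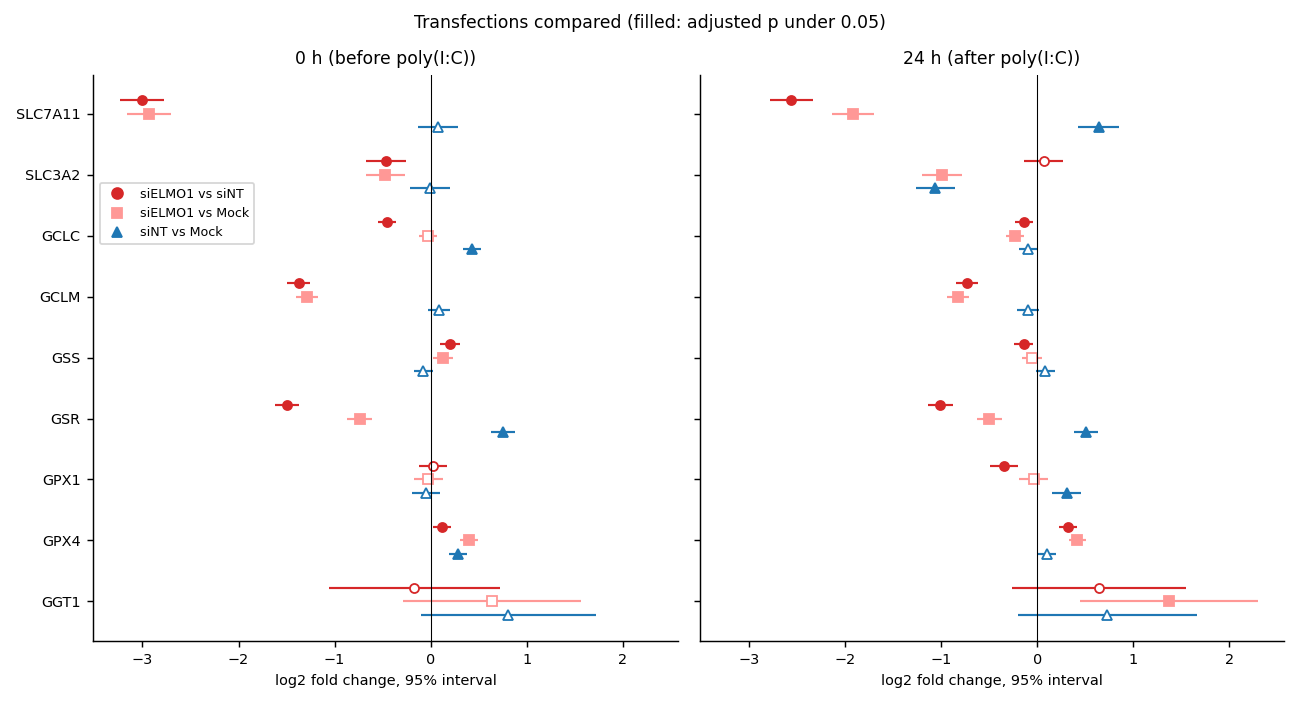
Log2 fold change of each member (horizontal axis, lines are 95% intervals) for siELMO1 against siNT (red circles), siELMO1 against Mock (pink squares) and siNT against Mock (blue triangles), at 0 h and 24 h. Filled symbols passed an adjusted p of 0.05. SLC7A11 lies near -3 at 0 h, and GCLC and GSR are raised in siNT against Mock at 0 h.

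Some members differed between siNT and Mock, and a count near the share of all genes is no result about the members. Against Mock at 0 h, 3 were higher in siNT (GSR 0.76, GCLC 0.43 and GPX4 0.28 on the log2 scale, with edgeR adjusted p of 9.36e-09, 3.30e-07 and 3.72e-05), beside 27.6% of all genes, and 0 were lower, beside 24% of all genes. SLC7A11 differed by 0.08 (95% interval -0.13 to 0.29) and SLC3A2 by -0.01 (-0.21 to 0.20), and neither passed the test. At 24 h, 3 were higher in siNT (SLC7A11 0.64, GSR 0.51 and GPX1 0.31; 25.2% of all genes) and 1 was lower (SLC3A2 -1.06, adjusted p = 1.24e-07; 24.9% of all genes). GCLC, GPX4 and GSS passed at 24 h when 1 library was left out: GCLC without siNT library 3 (-0.12, adjusted p = 0.0419), GPX4 without Mock library 3 (0.13, 0.0318) or siNT library 1 (0.13, 0.0363), and GSS without Mock library 2 (0.13, 0.0313).

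After poly(I:C), siELMO1 differed from siNT in 7 members. Lower were SLC7A11, GSR, GCLM, GPX1, GSS and GCLC (6, beside 26.5% of all genes), and GPX4 was higher (1, beside 26%). Against Mock, 5 were lower (SLC7A11, SLC3A2, GCLM, GSR and GCLC; 22% of all genes) and 2 were higher (GGT1 and GPX4; 21.6%). The members' median was -0.14 against siNT and -0.23 against Mock, with -0.01 over all genes in each. SLC7A11, GCLM, GSR and GCLC were lower and GPX4 was higher against both controls at 24 h. The GCLC call against siNT was lost in some alternative fits. These contrasts share the siELMO1 libraries. The part of the cell death reported for siNT cultures in the contrast against siNT was not tested.

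Poly(I:C) with 24 h of culture changed the import chains in opposite directions in Mock. There 3 members rose (SLC3A2 1.28, GCLC 0.45 and GCLM 0.14 on the log2 scale), beside 30.7% of all genes, and 4 fell (SLC7A11 -1.37, GPX4 -0.20, GSR -0.19 and GSS -0.16), beside 29.6%. SLC7A11 was 2.58-fold lower (edgeR adjusted p = 2.54e-09) and SLC3A2 2.43-fold higher (adjusted p = 3.61e-09) than at 0 h, with no overlap of libraries. The GCLM call was lost without any 1 of the Mock 0 h libraries or Mock 24 h library 1 (adjusted p from 0.0871 to 0.247), and GPX1 (-0.15, adjusted p = 0.0705) passed without Mock 0 h library 2 (-0.23, 0.0243). Scaling by library totals shifted the median of all genes by -0.12 in this comparison and the share of calls that were higher from 50.9% to 37.9%. Under it GCLM stood at 0.02 (adjusted p = 0.745) and GPX1 at -0.27 (0.00565), and no called member turned direction.

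In siNT, SLC7A11 (-0.80), GSR (-0.44) and GPX4 (-0.38) fell, beside 25.2% of all genes, and GPX1 (0.20, adjusted p = 0.0227) rose, beside 28.6%. The GPX1 call was lost without siNT 0 h library 1 or 2 or siNT 24 h library 1 or 2 (adjusted p from 0.0544 to 0.0864). It was also lost with library totals (0.0868), with upper-quartile scaling (0.0798) and with no filter on low counts (0.0896). SLC3A2 gave 0.23 (95% interval 0.03 to 0.44, edgeR adjusted p = 0.0548), with every 24 h library above the 0 h libraries, and was called by DESeq2 (adjusted p = 0.0349) and by limma-voom (0.0490). In siELMO1, SLC3A2 (0.76), GCLM (0.61) and GCLC (0.25) rose, beside 28% of all genes, and SLC7A11 (-0.36), GSS (-0.34) and GPX4 (-0.18) fell, beside 26.9%. GSR gave 0.05 (95% interval -0.08 to 0.18), so no fall was detected in siELMO1. GPX1 (-0.17, adjusted p = 0.0548) passed without siELMO1 0 h library 2 (-0.23, 0.0126), without library 3 (-0.20, 0.0413), or without both (-0.36, 0.000805). SLC7A11 and GPX4 were the members that fell in each of the 3 transfections.

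**Figure D4:**
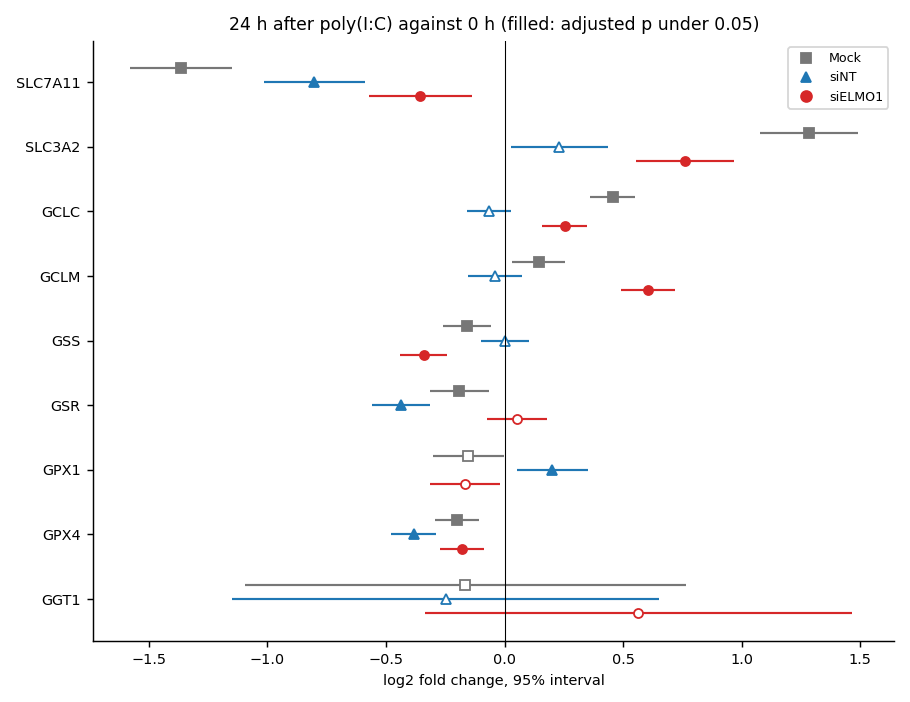
Log2 fold change of each member from 0 h to 24 h after poly(I:C) (horizontal axis, lines are 95% intervals) in Mock (grey squares), siNT (blue triangles) and siELMO1 (red circles). Filled symbols passed an adjusted p of 0.05. The fall of SLC7A11 is largest in Mock (-1.37) and smallest in siELMO1 (-0.36), and the rise of SLC3A2 is largest in Mock (1.28).

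Whether the responses differed was tested as an interaction in the same model. The response of siELMO1 was above that of siNT in 6 members (beside 16.7% of all genes) and below it in 2 (beside 17.8%). It was above that of Mock in 3 (beside 13.8%) and below it in 2 (beside 14.6%). The siNT response was above that of Mock in 2 members (beside 15%) and below it in 4 (beside 16%). For SLC7A11 the fall in siELMO1 was smaller than in Mock by 1.01 on the log2 scale (SE 0.14, edgeR adjusted p = 5.21e-05), from a level that was already low at 0 h. For SLC3A2 the rise in Mock was larger than in siNT by 1.05 and than in siELMO1 by 0.52. GCLM rose more in siELMO1 than in siNT by 0.65 (adjusted p = 3.41e-06) and than in Mock by 0.46 (adjusted p = 0.000206). Scaling by library totals moved the share of higher calls over all genes from 48.6% to 60.4% for siELMO1 against Mock and from 48.3% to 64.8% for siNT against Mock.

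Over the 18 libraries, log2 CPM of SLC7A11 and GSR had a Pearson r of 0.90, SLC7A11 and GCLM 0.82, and GCLM and GSR 0.78. SLC7A11 and its partner SLC3A2 had 0.09. GPX4 ran against SLC3A2 (-0.77) and GCLM (-0.74). Of the 36 pairs, 8 were over 0.5 and 4 under -0.5. These values are descriptions, since the libraries fall in 6 groups that share controls and scaling. Among 12875 genes with a mean of at least 1 CPM, the patterns most like that of SLC7A11 included those of CEP120 (r of 0.984), ATP6V0E2 (0.980), CTBP2 and FAM199X (0.978 each). Most like GCLM were MAGEA12 (0.985), RPE (0.979) and CYFIP1 (0.978), where CYFIP1, a member of the WAVE complex, had 254, 286 and 104 CPM on average in Mock, siNT and siELMO1 at 0 h.

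Other genes around glutathione were read from 11 lists of 105 genes, of which 79 were tested. In siELMO1 against siNT at 0 h, 39 were lower and 20 higher, with a median log2 fold change of -0.23 beside 0.00 over all genes, of which 31.3% were lower and 31.3% higher. Against Mock 29 were lower and 25 higher with a median of -0.03, beside 22.4% and 27.9% of all genes. These shares stand for each list below, and a list near them is no result about its genes. In siNT against Mock at 0 h 39 were higher and 14 lower, beside 27.6% and 24% of all genes. The median was 0.21 beside 0.03 over all genes. All 4 glutaredoxins were lower against siNT (median -0.87) and 3 of 4 against Mock (median -0.42). Among them were GLRX (-1.13 and -0.59), GLRX5 (-1.08 and -0.54) and GLRX3 (-0.66 and -0.30). All 4 were also higher in siNT than in Mock at 0 h (median 0.46). Of 11 genes listed under NADPH supply, 9 were lower and 2 higher against siNT, and 6 lower and 1 higher against Mock. The list is wider than the enzymes that form NADPH themselves. SHMT2, the mitochondrial serine hydroxymethyltransferase, was lower by 2.15 and 2.17 on the log2 scale, at 201 CPM in siNT, 203 CPM in Mock and 45.1 CPM in siELMO1. TALDO1 of the pentose phosphate path (-0.66 and -0.38) and MTHFD2 of mitochondrial folate metabolism (-0.57 and -0.53) were lower as well.

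In glutathione breakdown 4 of 7 genes were lower and 2 higher against siNT (2 and 3 against Mock). GGCT, which forms oxoproline from gamma-glutamyl amino acids (-2.27 and -1.39), and CHAC2, which splits glutathione in the cytosol (-1.62 and -1.27), were lower, and the surface peptidase ANPEP (1.44 and 0.71) was higher. Of 12 glutathione S-transferases, 5 were lower and 2 higher against siNT (4 and 3 against Mock), with MGST1 (-0.58 and -0.39), GSTO1 (-0.57 and -0.27) and MGST3 (-0.37 and -0.19) named by the rule. Of 7 genes of glutathione transport, 2 were lower and 1 higher (1 and 4 against Mock), with SLC25A40, a mitochondrial glutathione carrier, at -0.67 and -0.82 and the exporter ABCC5 at 0.21 and 1.12.

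Among 6 genes of cysteine supply, 2 were lower and 3 higher against siNT (2 and 2 against Mock). The neutral amino acid carriers SLC1A4 (-0.49 and -0.92) and SLC1A5 (-0.36 and -0.50) were lower, and CTNS, which exports cystine from lysosomes, was higher (0.19 and 0.24). Of the 3 other light chains of SLC3A2 that were tested, SLC7A5, the large neutral amino acid chain, was lower (-1.33 and -0.60) and SLC7A7 was higher (1.88 and 1.87, from a mean of 0.340 CPM in siNT to 1.25 CPM). Of 6 genes of selenoprotein synthesis, 3 were lower and 0 higher against siNT (1 and 1 against Mock), with the selenophosphate synthetase SEPHS2 at -0.60 and -0.37. Of 2 other glutathione peroxidases tested, GPX8 was higher (0.40 and 0.24). GPX3, which falls outside the rule and is named after its values were seen, was lower against Mock (-1.03, adjusted p = 0.0343) and gave -0.77 against siNT (0.0998), with means of 0.329, 0.274 and 0.162 CPM in Mock, siNT and siELMO1.

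**Figure D5:**
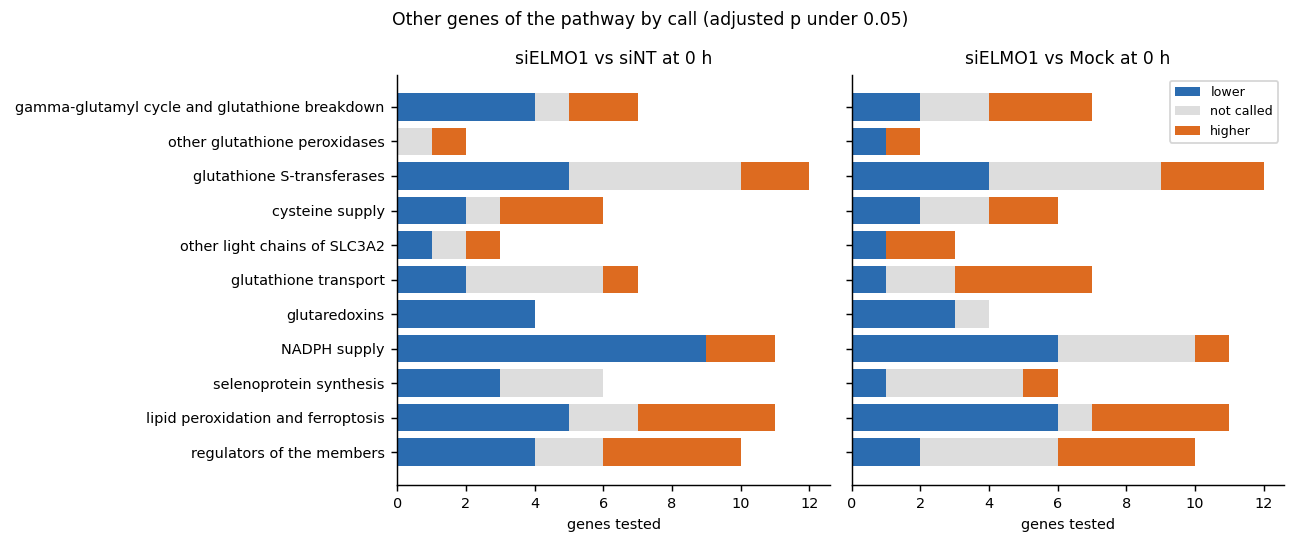
Number of tested genes (horizontal axis) in each of 11 lists of genes around glutathione that were lower (blue), not called (grey) or higher (orange) in siELMO1 at 0 h, against siNT (left) and Mock (right). All 4 glutaredoxins and 9 of 11 genes listed under NADPH supply are lower against siNT, and 3 of 4 and 6 of 11 against Mock.

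Of 11 genes of lipid peroxidation and ferroptosis, 5 were lower and 4 higher against siNT, and 6 and 4 against Mock. AIFM2 (FSP1), which reduces coenzyme Q in membranes, was lower (-1.48 and -0.73), as was the ferritin heavy chain FTH1 (-0.88 and -0.65), and the iron exporter SLC40A1 was higher (0.97 and 1.52). Of 10 regulators of the members, 4 were lower and 4 higher against siNT, and 2 and 4 against Mock. NFE2L1 (1.72 and 0.57) and MAFF (1.29 and 0.29) were among those higher in siELMO1. After poly(I:C) all 10 of these regulators rose in Mock, beside 30.7% of all genes, 6 rose in siNT, beside 28.6%, and 8 rose in siELMO1, beside 28%. Their medians were 0.53, 0.27 and 0.39, 0 fell, and the difference between these counts was not tested. ATF4 and NFE2L2 (NRF2), named for their role after their values were seen, rose in Mock by 1.11 and 0.58. ATF4 rose by 0.41 in siNT and in siELMO1, while NFE2L2 gave 0.11 in siNT (adjusted p = 0.0862) and 0.09 in siELMO1 (0.178).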

How the data were processed

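RNA sequencing of 18 libraries of EA.hy926 cells was used, 3 for each of Mock, siNT and siELMO1 at 0 h and 24 h. Per the labels and the study's methods, the authors made libraries with a stranded mRNA kit, aligned reads to GRCh38 with STAR and quantified genes and transcripts with StringTie. The deposited values are estimated counts (expected counts) per gene and per transcript, whole numbers that were not normalised. They come from read coverage, so 1 count need not be 1 read, and the read length and strand setting of that step were not given in the sources used here. No column was left without a sample. Of 62754 gene identifiers, 62700 were in GENCODE version 44, which gave the coordinates.

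Groups came from the sample labels. The study's filter kept 15167 genes, those that reached 1 CPM in some library and summed to 100 counts or more over all of them. One edgeR quasi-likelihood model (version 4.0.16, R 4.3.3) with TMM factors and 6 group means was fitted to all libraries, p-values were two-sided and adjusted by Benjamini-Hochberg over all genes tested, and a gene was called at an adjusted p under 0.05. A direct permutation of 3 against 3 libraries cannot give a p below 0.1 and was not used. The study's methods call the 3 libraries of a group biological replicates and the labels name no separate cultures, so p-values measure the spread between these libraries. Pairs of libraries within groups differed beyond sampling noise, and none was counted as a duplicate.

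The genes, the lists and the rule for named genes were chosen with earlier results of these data known. The rule named all members, ELMO1, from each list up to 3 genes with the largest change against siNT at 0 h that also passed against Mock in the same direction, and the genes whose patterns were most like those of SLC7A11 and GCLM. Some genes that the rule named are not reported here. Same-numbered libraries of Mock and siNT at 24 h deviated together over 9644 genes (r of 0.288, 0.335 and 0.250). Numbers were therefore taken to pair this comparison, and the block changed no call in it. The labels name no shared culture or batch, and libraries with unlike numbers were not correlated. For siELMO1 at 0 h and siNT at 24 h, which were not compared directly, r was also over 0.1 (0.218, 0.203 and 0.119). Other pairs of groups compared had at least 1 r not over 0.1. Alternatives were DESeq2 1.42.0, limma-voom (limma 3.58.1), other scalings and filters, the replicate block, fits on the groups compared alone, mitochondrial genes left out, and each library left out in turn. The study's own test, voom with limma and DREAM, was approached only by limma-voom.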

Additional observations from a re-analysis of the deposited data

Results flagged for a closer look

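The responses to poly(I:C) of 2 transfections differed, by the interaction test in edgeR, for 8 of the 9 members in at least 1 pair, all but GGT1. The share of all genes called in at least 1 pair was not computed, so this count has no background beside it. GGT1 was imprecise, at 0.81 (SE 0.60) for siELMO1 minus siNT, 0.73 (SE 0.61) for siELMO1 minus Mock and -0.08 (SE 0.60) for siNT minus Mock. The lack of a call for it does not show equal responses. Each value is the difference between log2 fold changes from 0 h to 24 h. For siELMO1 minus siNT it was 0.65 for GCLM, 0.53 for SLC3A2 (adjusted p = 0.00608), 0.49 for GSR, 0.45 for SLC7A11 (adjusted p = 0.0225), 0.32 for GCLC, 0.20 for GPX4 (adjusted p = 0.0175), -0.34 for GSS and -0.37 for GPX1 (adjusted p = 0.00815). The SLC7A11 value lost its call without siELMO1 0 h library 2, siELMO1 24 h library 1 or siNT 0 h library 1 (adjusted p from 0.0537 to 0.0698), and the GPX4 value without siNT 24 h library 1 (0.0508). Without siELMO1 0 h libraries 2 and 3, SLC7A11 (0.43, adjusted p = 0.0943) and SLC3A2 (0.28, adjusted p = 0.0838) were not called.

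For siELMO1 minus Mock it was 1.01 for SLC7A11, 0.46 for GCLM, 0.24 for GSR (adjusted p = 0.0384), -0.20 for GCLC (adjusted p = 0.0221) and -0.52 for SLC3A2 (adjusted p = 0.00866). The GSR value lost its call without Mock 24 h library 1 or 3, siELMO1 0 h library 3 or siELMO1 24 h library 1 (adjusted p from 0.0588 to 0.110). The GCLC value lost it without any 1 of the Mock 0 h libraries, Mock 24 h library 1, siELMO1 0 h library 2 or siELMO1 24 h library 3 (adjusted p from 0.0527 to 0.103), with library totals (0.109) or with no filter on low counts (0.195). Without siELMO1 0 h libraries 2 and 3 together, GCLC (-0.14, adjusted p = 0.227) and GSR (0.29, 0.0565) were not called and GSS was (-0.23, 0.0349). GSS (-0.18, adjusted p = 0.0509) passed without any 1 of Mock 24 h library 3, siELMO1 0 h library 2 or 3, or siELMO1 24 h library 2 (adjusted p from 0.0420 to 0.0472).

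For siNT minus Mock it was 0.56 for SLC7A11 (adjusted p = 0.00564), 0.35 for GPX1 (adjusted p = 0.0116), -0.18 for GPX4 (adjusted p = 0.0324), -0.25 for GSR (adjusted p = 0.0320), -0.52 for GCLC (adjusted p = 6.54e-06) and -1.05 for SLC3A2 (adjusted p = 1.64e-05). The GPX4 and GSR values are near the threshold: of the 12 fits that left out 1 library, GPX4 was lost in 8 (without any 1 of the Mock 0 h libraries, Mock 24 h library 1 or 3, siNT 0 h library 2 or 3, or siNT 24 h library 1; adjusted p from 0.0517 to 0.139) and GSR in 7 (without any 1 of the Mock 0 h libraries, Mock 24 h library 2, siNT 0 h library 2 or 3, or siNT 24 h library 3; adjusted p from 0.0573 to 0.102). GCLM (-0.19, adjusted p = 0.0713) passed without siNT 24 h library 1 (-0.22, 0.0460) and GSS (0.16, adjusted p = 0.0803) without Mock 24 h library 2 (0.21, 0.0219). The 3 differences share groups, so they are not independent of each other. The part of the cell death reported for siNT cultures in the differences that use siNT was not tested. Groups of 3 libraries were not searched for outlying values.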

How the results depend on the processing

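The number of members called, out of 9, stayed within 1.5 times its value in 12 comparisons under DESeq2, limma-voom, other scalings and other filters on low counts, and no called fold change turned direction under any alternative run. For siNT against Mock at 0 h it was 3, and 5 when only the 6 libraries compared were fitted, where GSS (-0.10, adjusted p = 0.0106) and GGT1 (0.78, adjusted p = 0.0176) were added. Leaving out 1 library gave 3 to 6 for the difference between the siELMO1 and Mock responses (5 with all libraries, and 3 without Mock 24 h library 1). It gave 6 to 7 for siELMO1 against siNT and 5 to 7 against Mock at 0 h. With the replicate block 7 and 6 members were called in these 2 comparisons, as without it. In siNT against Mock at 24 h, where numbers were taken to pair the libraries, the block gave 4, also in a fit of those 6 libraries. That fit was chosen after seeing the data. No pairing by number was taken for the other comparisons. There the replicate block gave 5 in place of 4 for siNT from 0 h to 24 h. It gave 6 in place of 5 for the siELMO1 and Mock responses, and 7 in place of 6 for the siNT and Mock responses. The fits without siELMO1 0 h libraries 2 and 3 were also chosen after seeing the data, and the library left is assumed to vary like the other groups. GGT1 had the fewest counts of the members, and whether depth limits its calls was not tested.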
